A study of Mus musculus with 6 samples.

Results

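Oligodendrocyte precursor cells are the dividing progenitors from which myelinating oligodendrocytes form, and committed precursors are the short stage between the 2. The markers described here are 10 genes of these stages, Pdgfra, Cspg4, Cspg5, Vcan, Ptprz1, Tmem100, C1ql1, Neu4, Lhfpl3 and Gpr17, taken by name from 55298 gene identifiers in the deposited table. All 10 were found and all 10 passed a filter on low values that kept 18161 genes. RNA was sequenced from uncultured brain cells of c56Bl/6j mice, captured on magnetic beads by the O4 antigen, a sulfatide that appears on late precursors and stays on oligodendrocytes. The EAE group holds 3 pools of 2 mice each that were immunised with MOG 35-55, a myelin oligodendrocyte glycoprotein peptide that induces experimental autoimmune encephalomyelitis (EAE), a T cell driven disease of central nervous system myelin. The OVA group received ovalbumin and holds 3 samples from 4 mice, of which replicates 1 and 3 are 1 mouse each and replicate 2 is a pool of 2. Tissue was taken when disease had reached its maximum. The labels give no age and no batch. A pool shows the average of its mice, so variation between individual mice was not measured in EAE, where every sample is a pool. Single mice are present only in OVA, so the groups also differ in pooling.

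Precursors respond to platelet-derived growth factor through Pdgfra and carry chondroitin sulfate proteoglycans on their surface, of which Cspg4 (NG2) is the classic marker. As they commit to differentiation they switch on Gpr17, a receptor that is lost again before myelin is made. Several of these genes are not exclusive to the lineage in brain. Ptprz1 and Cspg5 are also strongly expressed by astrocytes, Cspg4 by pericytes, Pdgfra and Vcan by fibroblasts of the vessel wall and meninges, and Tmem100 by endothelial cells.

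In the EAE pools 2 of the 10 genes fell, Ptprz1 1.55-fold and Tmem100 1.41-fold, none rose, and 8 did not pass the test (limma, Benjamini-Hochberg adjusted p under 0.05). Over all tested genes, 0.666% were called lower and 1.72% higher, 2.38% in all. At an unadjusted p under 0.05 there were 7 of the 10, against 16.3% of all tested genes. The 8 uncalled genes were not alike. Cspg5 was 1.48-fold lower, Cspg4 lay at the same level in both groups, and Lhfpl3, C1ql1, Neu4, Pdgfra, Gpr17 and Vcan were 1.23-fold to 1.41-fold higher on average. The groups did not overlap for 7 of the 10, with the EAE pools above OVA for 4 and below for 3, where 22.8% of all tested genes were separated in either direction, 12.1% above and 10.8% below. The median difference over the 10 genes was 0.33 on the log2 scale, beside -0.002 over all tested genes. Values are regularised logarithms (rlog), in which a difference of 1 is a 2-fold difference and differences of weakly expressed genes are shrunk. In such bulk samples fewer cells of a type and less RNA per cell cannot be told apart.

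**Figure D1:**
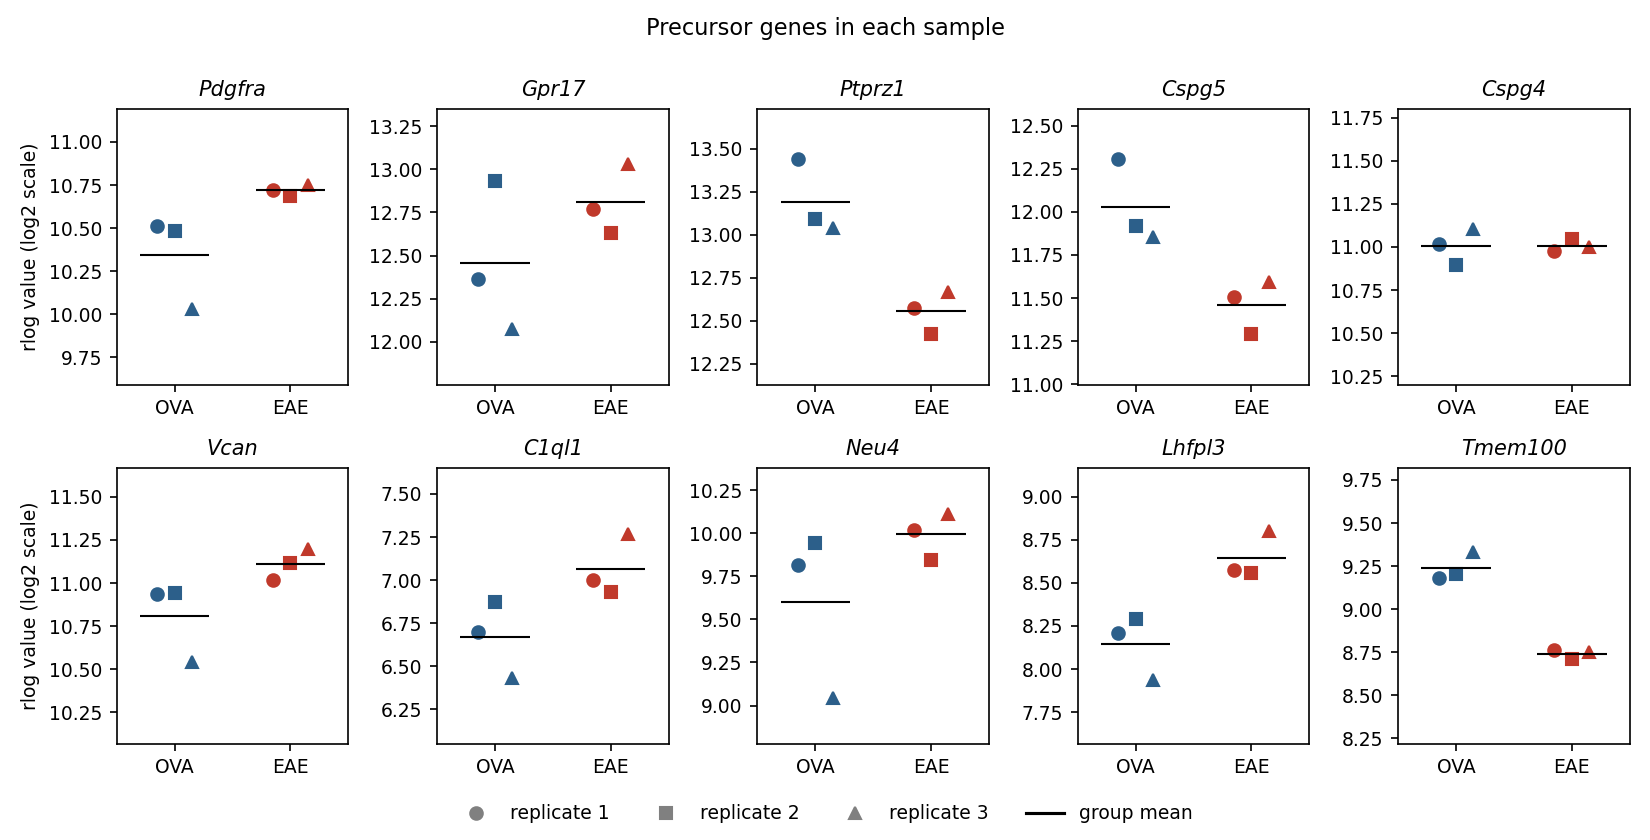
Each panel plots the rlog value (log2 scale) of 1 precursor gene in the 3 OVA and 3 EAE samples, with symbols for replicates 1 to 3 and a line at the group mean; every panel spans a range of the same width. EAE pools lie wholly below OVA for Ptprz1, Cspg5 and Tmem100 and wholly above it for Pdgfra, Vcan, C1ql1 and Lhfpl3.

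The upstream sequences of 3 members are shown as context for members that differed in opposite directions, Ptprz1, which fell, and Pdgfra and Vcan, which lay higher without passing the test. Windows came from a RefSeq table (GRCm38.p6), in which 6 of the 10 genes were matched. Each run gives the 250 bases before the RefSeq start, 5′ to 3′ on the gene's strand, and none of these bases falls in a GENCODE M21 exon. Ptprz1 is at chr6:22875252-22875501 on the plus strand, Pdgfra at chr5:75152001-75152250 on the plus strand and Vcan at chr13:89742513-89742762 on the minus strand. The RefSeq start differs from the GENCODE gene start for Pdgfra (75152251 against 75152292) and Vcan (89742512 against 89742509), and is the same for Ptprz1. Capitals mark the E-box CANNTG, the letters bound by basic helix-loop-helix factors such as the Olig proteins.
Ptprz1: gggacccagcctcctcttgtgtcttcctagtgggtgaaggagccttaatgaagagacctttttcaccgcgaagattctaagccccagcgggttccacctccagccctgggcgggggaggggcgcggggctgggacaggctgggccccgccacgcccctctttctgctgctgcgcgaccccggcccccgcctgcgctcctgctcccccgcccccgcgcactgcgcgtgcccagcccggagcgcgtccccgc
Pdgfra: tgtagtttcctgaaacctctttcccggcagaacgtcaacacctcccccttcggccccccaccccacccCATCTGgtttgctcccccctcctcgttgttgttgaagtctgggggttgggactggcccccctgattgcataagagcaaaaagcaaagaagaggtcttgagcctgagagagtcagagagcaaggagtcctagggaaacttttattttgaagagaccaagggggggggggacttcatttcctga
Vcan: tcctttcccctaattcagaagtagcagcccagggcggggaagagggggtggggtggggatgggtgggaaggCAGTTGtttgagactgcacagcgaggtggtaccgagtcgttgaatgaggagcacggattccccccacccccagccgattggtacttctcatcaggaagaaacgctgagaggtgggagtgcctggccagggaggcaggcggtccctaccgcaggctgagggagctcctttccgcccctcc
Searched on both strands, the E-box letters occurred once in the Pdgfra window, as CATCTG starting 182 bases before the start, and once in the Vcan window, as CAGTTG starting 179 bases before it. No match was in the Ptprz1 window, which is also the richest in G and C of the 3 at 71.6%, against 54.4% for Pdgfra and 62.4% for Vcan. Of 32817 windows of the same length, 66.2% held the E-box letters, so a match is common. The SOX core letters ACAAAG or ACAATG, searched likewise and present in 25.2% of windows, matched in none of the 3. Matches of both motifs could overlap, but the only matches here were E-boxes, and a match describes letters only.

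Pdgfra (ENSMUSG00000029231.15, chromosome 5, 75152292 to 75198215), the receptor for PDGF-A that keeps precursors dividing, read 10.72, 10.69 and 10.75 in EAE replicates 1 to 3 and 10.51, 10.49 and 10.03 in OVA replicates 1 to 3. All EAE pools lay above all OVA samples, and the pools differed from each other far less than the OVA samples did. OVA replicates 1 and 3 are single mice, and the part of pooling in that spread was not tested. The means were 10.72 ± 0.03 in EAE and 10.34 ± 0.27 in OVA (SD, n = 3), a difference of 0.38 ± 0.13 (SE) with a 95% interval of 0.08 to 0.68, which did not pass (limma adjusted p = 0.204). OVA replicate 3 was the lowest sample, and without it the difference was 0.22 (limma adjusted p = 0.097).

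Gpr17 (ENSMUSG00000052229.5, chromosome 18, 31942997 to 31949636), the receptor of committed precursors, read 12.77, 12.63 and 13.03 in EAE and 12.37, 12.93 and 12.07 in OVA. The groups overlapped, since OVA replicate 2 exceeded EAE replicates 1 and 2. Its difference was 0.35 ± 0.21 (SE) with an interval of -0.15 to 0.85 (limma adjusted p = 0.463), and it was 0.16 without OVA replicate 3 and 0.59 without OVA replicate 2. Neu4 (ENSMUSG00000034000.15, chromosome 1, 94020451 to 94028334), a sialidase that trims sialic acid from glycans and is also enriched at the committed stage, behaved much the same. It read 10.02, 9.85 and 10.11 in EAE and 9.82, 9.95 and 9.04 in OVA. OVA replicate 3 stood far below every other sample, and leaving it out took the difference from 0.39 to 0.11 (limma adjusted p = 0.435 with all samples).

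Among the proteoglycans, Ptprz1 (ENSMUSG00000068748.7, chromosome 6, 22875502 to 23052916), a receptor tyrosine phosphatase whose extracellular part carries chondroitin sulfate, read 12.58, 12.42 and 12.67 in EAE and 13.44, 13.09 and 13.04 in OVA. Every EAE pool was below every OVA sample, and OVA replicate 1 was the highest of all. The mean fell by 0.63 with an interval of -0.92 to -0.34, and was 13.19 ± 0.22 in OVA and 12.56 ± 0.12 in EAE (SD, n = 3). That difference passed the test (limma adjusted p = 0.0485). The adjusted p was close to the threshold and stood above it when any single sample other than OVA replicate 3 was left out, at 0.0786 to 0.197.

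Cspg5 (ENSMUSG00000032482.9, chromosome 9, 110243783 to 110262576), neuroglycan C, is the other proteoglycan shared with astrocytes. It read 11.51, 11.29 and 11.59 in EAE and 12.30, 11.92 and 11.86 in OVA, and the samples stood in the same order from low to high as for Ptprz1. Its difference of -0.56 ± 0.14 (SE), with an interval of -0.88 to -0.25, missed the threshold (limma adjusted p = 0.0884) and passed it without OVA replicate 3 (-0.65, limma adjusted p = 0.0303).

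Cspg4 (ENSMUSG00000032911.6, chromosome 9, 56865033 to 56899870) and Vcan (ENSMUSG00000021614.16, chromosome 13, 89655312 to 89742509) showed no fall. The NG2 proteoglycan gene Cspg4 read 10.97, 11.05 and 10.998 in EAE and 11.02, 10.90 and 11.11 in OVA. The samples were interleaved, and the interval of the difference was -0.18 to 0.18 around -0.001, so changes beyond 0.18 in size lay outside it. Vcan, the secreted matrix proteoglycan versican, read 11.02, 11.12 and 11.20 in EAE and 10.94, 10.94 and 10.54 in OVA. Its groups did not overlap, but EAE replicate 1 exceeded OVA replicate 2 only narrowly, and the difference of 0.30 ± 0.12 (SE) did not pass (limma adjusted p = 0.274). Without OVA replicate 3 the Vcan difference was 0.17.

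Tmem100 (ENSMUSG00000069763.3, chromosome 11, 90030348 to 90036508), a small membrane protein known from the BMP and ALK1 pathway of endothelium, read 8.76, 8.71 and 8.75 in EAE and 9.18, 9.21 and 9.33 in OVA. The groups were separated by a gap wider than the range of either. The mean fell by 0.50 with an interval of -0.69 to -0.31, and was 9.24 ± 0.08 in OVA and 8.74 ± 0.03 in EAE (SD, n = 3). That difference passed the test (limma adjusted p = 0.0275). This call too was lost when any 1 sample other than OVA replicate 3 was left out (limma adjusted p = 0.0546 to 0.146), while the difference itself stayed between -0.53 and -0.45.

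Lhfpl3 (ENSMUSG00000106379.1, chromosome 5, 22746059 to 23275597), a tetraspan membrane protein, had the largest positive difference of the 10. It read 8.58, 8.56 and 8.80 in EAE and 8.21, 8.29 and 7.94 in OVA, with no overlap. The difference of 0.50 ± 0.13 (SE), with an interval of 0.21 to 0.79, missed the threshold (limma adjusted p = 0.0962) and was 0.395 without OVA replicate 3. C1ql1 (ENSMUSG00000045532.5, chromosome 11, 102939264 to 102946688), a secreted C1q-like protein that binds the adhesion receptor Adgrb3, was the weakest of the 10. It read 6.999, 6.93 and 7.27 in EAE and 6.70, 6.87 and 6.43 in OVA, so the groups were separated by a narrow margin. Its difference was 0.40 ± 0.15 (SE; limma adjusted p = 0.234), and 0.28 without OVA replicate 3.

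**Figure D2:**
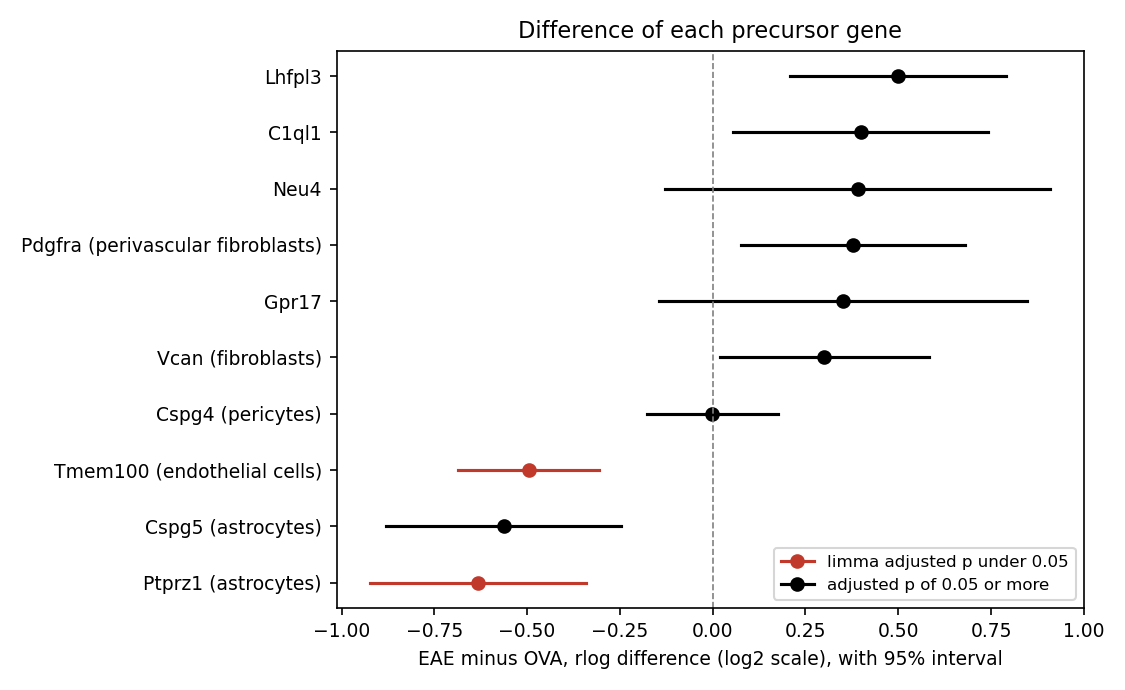
Points give the EAE minus OVA rlog difference (log2 scale) of each precursor gene and bars its 95% interval from limma; names in brackets are other brain cells known to express the gene. The 2 called genes, Ptprz1 and Tmem100, and the uncalled Cspg5 lie below 0, Cspg4 lies at 0, and 6 genes lie above it, with intervals of Neu4 and Gpr17 that include 0.

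Divided by exon length, the order of the genes could be compared roughly on the rlog scale minus log2 of kilobases. The length counts all annotated exons of a gene, so one whose expressed transcript lacks some of them reads too low. In OVA, Gpr17 came first at 10.08, followed by Ptprz1 at 9.36, Cspg5 at 8.69 and Tmem100 at 8.42. Cspg4 (7.43) and Neu4 (7.39) came next and did not differ beyond the spread of the samples, nor did Pdgfra (7.02) and Vcan (6.95). Lhfpl3 at 6.46 and C1ql1 at 6.11 came last. In EAE the distance between the first and second place was wider, with Gpr17 at 10.43 and Ptprz1 at 8.72.

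Within the same samples, Ptprz1 and Pdgfra were compared directly as a ratio, which does not change with the scaling of a sample. Ptprz1 minus Pdgfra was 1.855, 1.738 and 1.917 in EAE and 2.926, 2.608 and 3.005 in OVA on the log2 scale. The ratio was thus 2.01-fold lower in EAE. Tmem100 minus Pdgfra was -1.958, -1.976 and -1.999 in EAE and -1.332, -1.28 and -0.702 in OVA, 1.83-fold lower in EAE. Both pairs join genes already seen to lie apart in opposite directions, which fixes the separation of the groups. An exact permutation test gave p = 0.1 for each, the smallest possible with 3 against 3 samples. That outcome was fixed in advance, so the ratios are descriptions only.

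OVA replicate 3, a single mouse, stood apart from the other samples. It had the lowest value of all 6 samples for 6 of the 10 members, Pdgfra, Gpr17, Vcan, C1ql1, Neu4 and Lhfpl3, and the highest for Cspg4 and Tmem100. The same sample was the lowest of all 6 for 7 of 7 lineage transcription factors and 11 of 12 myelin genes, and the highest for 10 of 10 endothelial, 5 of 5 fibroblast and 8 of 9 pericyte and smooth muscle markers. Cell division genes, which mark cycling cells of any kind, precursors among them, were also highest there for 7 of 8, with a median of 1.10 above the other OVA samples on the log2 scale. Of 12 microglia and monocyte markers, 6 were highest of the OVA samples there and 1 was lowest. Ly6c2 read 9.39 there, against 6.63 and 6.49 in OVA replicates 1 and 2 and 8.74 to 9.37 in EAE. Ccr2 read 9.26 there, against 8.095 and 8.23 in OVA replicates 1 and 2 and 8.98 to 9.42 in EAE. With OVA replicate 3 left out, the median difference over the 10 members was 0.14, and 3 members were called lower, Cspg5 joining Ptprz1 and Tmem100, and none higher. Calls also grew over all genes in that fit, to 346 lower (1.91%) and 850 higher (4.68%). The part of these other transcripts in the member values was not tested.

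**Figure D3:**
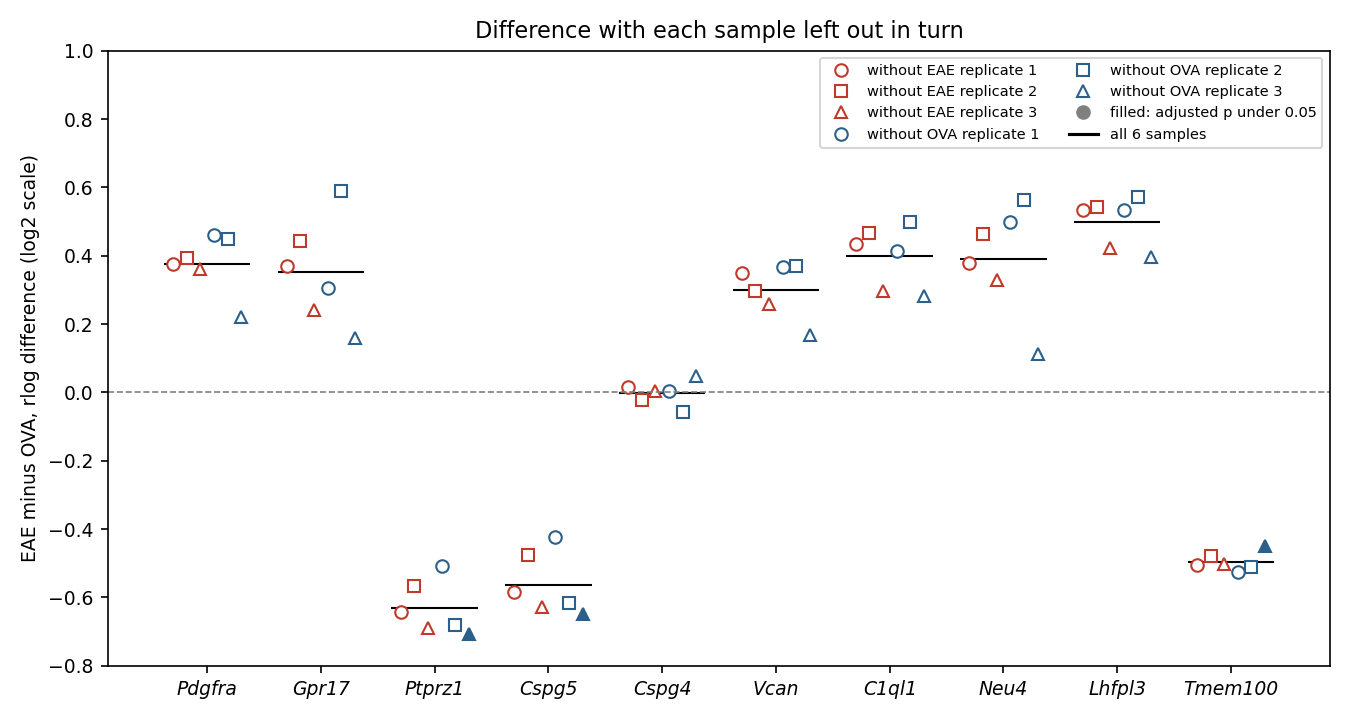
Points give the EAE minus OVA rlog difference (log2 scale) of each precursor gene with 1 sample left out, filled where the limma adjusted p is under 0.05, and black lines the difference over all 6 samples. Blue triangles, without OVA replicate 3, lie nearest 0 for the 6 genes above 0 and are the only filled points, for Ptprz1, Cspg5 and Tmem100.

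Markers of the cells that share these genes were set beside them. Of 13 astrocyte markers, 7 fell and 1 rose, and the median difference was -0.82. The mean level of the list ranged from 12.05 to 12.34 in the EAE pools and from 12.67 to 12.96 in the OVA samples, with no overlap. No marker read 0 in any sample. Not all of them moved, since Sox9 differed by -0.08 with overlapping groups (limma adjusted p = 0.679). Slc1a2, a glutamate transporter of astrocytes, read 14.78, 14.33 and 14.72 in EAE and 15.82, 15.46 and 15.37 in OVA, so that OVA replicate 1 was highest and EAE replicate 2 lowest, as for Ptprz1 and Cspg5. Its call held with 1 sample left out only where that was OVA replicate 3 (limma adjusted p = 0.0147, otherwise 0.0965 to 0.169). The bicarbonate transporter gene Slc4a4 fell by 1.14 in rlog (limma adjusted p = 0.0137), whereas that of the reactive astrocyte filament, Gfap, rose by 1.35 (0.00446). Slc4a4 missed the threshold without EAE replicate 2 (0.0728) and without OVA replicate 2 (0.0619). The part of astrocyte transcripts in the fall of Ptprz1 was not tested.

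Endothelial markers, of cells that also express Tmem100, were lower on average with a median of -0.56 over 10 genes, and 0 passed limma, with 6 at an unadjusted p under 0.05. Their mean ranged from 11.72 to 12.26 in EAE and from 12.12 to 12.96 in OVA, so the groups overlapped for the list mean. Taken singly, 1 of the 10 markers, Vwf, was separated, as Tmem100 was. Of the 13 astrocyte markers, 11 were separated in that direction. OVA replicate 3 was the highest sample for Tmem100, for all 10 endothelial markers and for 3 of the 13 astrocyte markers. Among the EAE pools, replicate 2 was the highest for the endothelial list mean (12.26) but the lowest for Tmem100 (8.71). The named endothelial markers were Vwf, which differed by -0.56 (limma adjusted p = 0.139), and Cdh5, by -0.55 (0.24). Of 8 genes of the ALK1 pathway 0 passed, also 0 at an unadjusted p under 0.05, with Bmpr2 and Eng at -0.36 and -0.42 (limma adjusted p = 0.307 and 0.345). The part of endothelial or astrocyte transcripts in the fall of Tmem100 was not tested. Of 9 pericyte and smooth muscle markers, which bear on Cspg4, 8 lay below 0 with a median of -0.32 and 1 rose, the aminopeptidase Anpep, which myeloid cells also express (limma adjusted p = 0.0335). The Anpep call was lost without EAE replicate 1 or 2 or OVA replicate 1 or 2 (0.0643 to 0.136). Fibroblast markers, which bear on Pdgfra and Vcan, had a median of -0.06 over 5 genes with 0 past limma and 0 at an unadjusted p under 0.05. Among the remaining marker lists, 4 of 12 microglia and monocyte markers rose and 1 fell, 4 of 4 T cell markers rose, and 0 of 7 neuron markers passed, with 1 at an unadjusted p under 0.05. Without OVA replicate 3, 8 of the 12 microglia and monocyte markers rose.

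**Figure D4:**
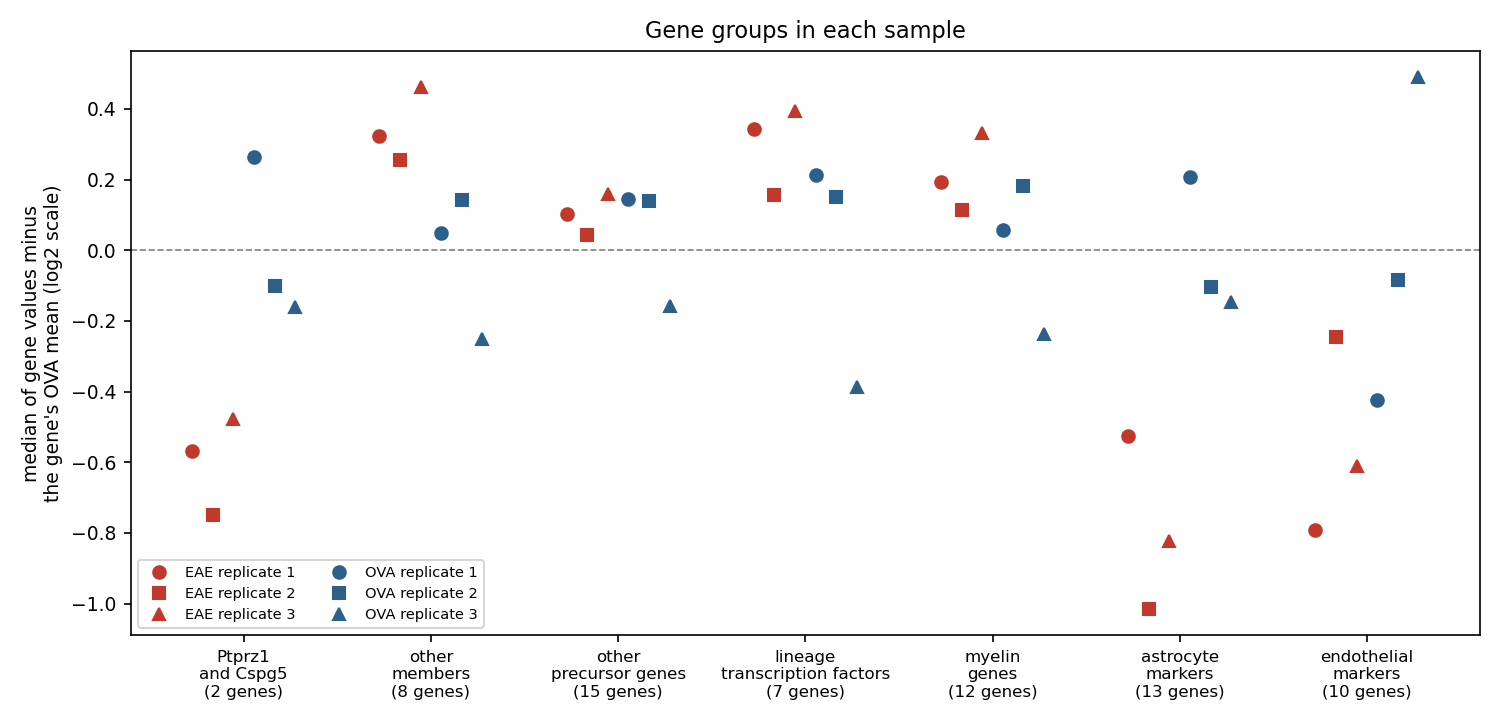
Each point is the median over a gene group of a sample's rlog value minus the gene's OVA mean (log2 scale), for 3 EAE pools (red) and 3 OVA samples (blue). Ptprz1 with Cspg5 and the astrocyte markers lie below 0 in all EAE pools (-0.75 to -0.48 and -1.015 to -0.525), while the median of the 8 other members, which include the lower Tmem100 and the level Cspg4, lies at 0.25 to 0.46, and OVA replicate 3 is lowest for the lineage groups and highest for endothelial markers.

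With all 6 samples, no other gene of the precursor and newly formed stages was called. Of 15 other precursor genes 9 lay above 0 and 6 below, with a median of 0.10, 0 past limma and 1 at an unadjusted p under 0.05. That gene was Snx22, a sorting nexin enriched in precursors, which read 10.14, 10.02 and 10.03 in EAE and 9.63, 9.51 and 8.87 in OVA (limma adjusted p = 0.103). Megf11 came next at 0.43 (0.313). Of 13 genes of newly formed oligodendrocytes, the stage after the committed precursor, 10 lay above 0 with a median of 0.12, and 0 passed limma with 5 at an unadjusted p under 0.05. The noncoding RNA 9630013A20Rik read 9.63, 9.65 and 9.83 in EAE and 9.22, 9.42 and 9.18 in OVA (limma adjusted p = 0.0742), and the kinesin Kif19a differed by 0.46 (0.0697). Without OVA replicate 3 both Snx22 (0.49, limma adjusted p = 0.0162) and Kif19a (0.36, 0.0363) passed.

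No listed lineage transcription factor or myelin gene passed the test. All 7 lineage transcription factors lay above 0 with a median of 0.28, and 0 passed limma with 2 at an unadjusted p under 0.05, and the groups overlapped for each. Centred on Olig1, Olig2 and Sox10, a scaling that by construction sets the differences of these genes to sum to 0, Olig1, Olig2 and Nkx2-2 lay just below 0. Olig1, Olig2 and Sox10, which precursors and oligodendrocytes both need, differed by 0.25, 0.28 and 0.37 (limma adjusted p = 0.514, 0.512 and 0.308). Of 12 myelin genes 11 lay above 0 with a median of 0.22 and 0 passed, with 1 at an unadjusted p under 0.05. Cldn11, the tight junction protein of myelin, and Mbp differed by 0.42 and 0.47 (limma adjusted p = 0.203 and 0.408). With each sample scaled to its mean of Olig1, Olig2 and Sox10, a scaling that moved the median of all genes to -0.30, the Pdgfra difference was 0.08 and that of Vcan 0.00, while those of Ptprz1 and Cspg5 were -0.93 and -0.86 (limma adjusted p = 0.000724 and 0.0118). Relative to that median the members stood as before, and Tmem100 was not called there (-0.80, limma adjusted p = 0.114).

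Around Pdgfra, the ligand genes and the related receptor gave no call, with 3 of 5 at an unadjusted p under 0.05. Pdgfa, the main ligand of Pdgfra, read 11.18, 11.17 and 11.12 in EAE and 10.87, 11.11 and 10.90 in OVA, so all EAE pools were higher by a small margin (limma adjusted p = 0.296). Pdgfrb, the receptor of pericytes, and Pdgfd, a ligand of that receptor, differed by -0.43 and -0.57 (limma adjusted p = 0.132 and 0.252).

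Around the proteoglycans, 1 of 6 lecticans and link proteins fell. It was Hapln1, the link protein that fixes lecticans to hyaluronan, which read 6.87, 6.66 and 7.13 in EAE and 7.72, 7.72 and 7.98 in OVA, so that it fell by 0.92 in rlog (limma adjusted p = 0.0246). The call was lost without EAE replicate 1 or 2 or OVA replicate 1 or 2 (0.0685 to 0.108). Without OVA replicate 3 the list held 2 lower calls, Hapln1 and the lectican Ncan. Of 9 ligands and partners of Ptprz1, 1 fell and 8 did not pass. Nrcam, a cell adhesion molecule that interacts with it, read 10.73, 10.69 and 10.76 in EAE and 11.46, 11.19 and 11.15 in OVA (limma adjusted p = 0.0341), and the call was lost without any EAE pool or OVA replicate 2 (0.088 to 0.157). The growth factor ligands Ptn and Mdk differed by -0.27 each (limma adjusted p = 0.159 and 0.204).

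Synthesis of the sugar chains showed 0 calls among 15 genes, with 1 at an unadjusted p under 0.05, Csgalnact1, which starts the chondroitin chain and differed by -0.53 (limma adjusted p = 0.0573). The next was its relative Csgalnact2 at -0.27 (0.319). Of 6 proteases that cleave lecticans, 0 passed and 1 had an unadjusted p under 0.05. Adamts1 differed by -0.29 and Adamts5 by -0.25 (limma adjusted p = 0.172 and 0.367). Without OVA replicate 3, Csgalnact1 (-0.43, limma adjusted p = 0.0358) and Adamts1 (-0.36, 0.0386) passed.

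Among relatives and receptors, Adgrb3, the receptor of C1q-like proteins such as C1ql1, fell by 0.45 in rlog, from 9.51, 9.39 and 9.28 in OVA to 8.97, 8.92 and 8.94 in EAE (limma adjusted p = 0.0462). Every EAE pool was lower, opposite in sign to C1ql1 itself, and the call held with 1 sample left out only where that sample was OVA replicate 3 (0.0163, otherwise 0.0928 to 0.2). It was the 1 called gene of 6 receptors. Of 9 tested relatives of the members 0 passed, with 4 at an unadjusted p under 0.05. C1ql2 differed by 0.23 (limma adjusted p = 0.0926) and the lysosomal sialidase Neu1 by 0.25 (0.161). Division genes gave 0 calls among 8, also 0 at an unadjusted p under 0.05, with Pcna and Cdk1 at 0.18 and 0.28. Without OVA replicate 3, the highest sample for most of these genes, 2 passed as higher, Mki67 and Top2a, which like Ncan were named after their values were seen.

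Genes whose values most resembled 3 of the members over the 6 samples were sought among 11020 genes with a mean rlog of at least 8. For Ptprz1 these were Adcyap1r1, the receptor of the peptide PACAP (Pearson r = 0.998, n = 6 samples), Scg3 (0.996) and Fndc5 (0.996). For Tmem100 they were Mfge8, a bridging protein for the uptake of dying cells (r = 0.997), the zinc transporter Slc39a12 (0.995) and Maml3 (0.994). For Pdgfra they were Slc25a10, Ank3 and Ncoa2 (0.994 to 0.995). With 6 samples such values are common, since 211, 110 and 127 genes exceeded 0.95 for Ptprz1, Tmem100 and Pdgfra, and the samples share a scaling, so these are descriptions, and the direction of a gene chosen this way follows from the choice.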

How the data were processed

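The deposited table gives 1 log2 value per gene and sample, which its name and values mark as rlog values made by the authors from library-size-scaled read counts. Tools listed in the submitters' processing notes, with no roles, are STAR 2.6.1c, Subread 1.6.1, DESeq2 1.24.0, cutadapt 1.18 and bcl2fastq 2.17, and the build is GRCm38. Libraries came from the TruSeq Stranded mRNA kit, per the labels' protocols. The annotation release, and whether the transformation used the groups, are not given in the sources used here. No counts are given, so depth is unknown and no counting interval can be stated.

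Identifiers were matched to GENCODE M21 symbols (55117 of 55298), keeping the highest mean where a symbol repeats. Genes at 0 in every sample or with a mean under 3 were left out. EAE was compared with OVA by limma 3.58.1 in R 4.3.3 with an intensity trend, two-sided, adjusted by Benjamini-Hochberg over 18161 genes at 0.05. The fit was tested on simulated data with noise of equal spread in every sample, so none stood apart as OVA replicate 3 does. It missed many of the smaller changes there. A gene that did not pass is thus not shown to be unchanged. Groups follow the treatment label, and replicate numbers only name samples. P-values set a difference between groups against the spread of the samples within groups. These samples mix pools and single mice, so that spread is not the one between individual mice. The members and lists were chosen with earlier results of these data known. Named genes are the members, up to 3 called genes per list or else the 2 with the smallest p, 6 anchor genes (Olig1, Olig2, Sox10, Mbp, Slc1a2, Pdgfrb) and the 3 most similar genes for Pdgfra, Ptprz1 and Tmem100. Some list genes taken by that rule are left out for length. Pdgfa, Ptn, Mdk, Ncan, Mki67 and Top2a are named outside that rule. So are Sox9, Ly6c2 and Ccr2, which were named after their values were seen. Alternatives changed the filter, the moderation, the sample weights, the scaling or left out 1 sample.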

Additional observations from a re-analysis of the deposited data

How the results depend on the processing

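No paired analysis was possible because replicate numbers were given in accession order and mark no shared animal or batch. With 1 sample left out, the number of higher genes ranged from 24 to 850 (312 with all), that of lower genes from 1 to 346 (121 with all), and that of members called lower from 0 to 3. Members called lower were 1 in place of 2 without a filter on the mean, without the intensity trend, with robust moderation and with median-centred samples, in each case because Ptprz1 missed the threshold (limma adjusted p = 0.0526 to 0.0582). Array quality weights, whose estimation stopped before convergence and gave OVA replicate 2 a weight of 8.85, called 2858 higher and 2233 lower genes and 2 members higher, Pdgfra and Lhfpl3, and 3 lower, Ptprz1, Tmem100 and Cspg5, with a median member difference of 0.078 (0.326 with equal weights). Centring on Olig1, Olig2 and Sox10 gave 147 higher and 343 lower genes. Ptprz1 minus Pdgfra ranged from -1.13 to -0.93 and Tmem100 minus Pdgfra from -0.99 to -0.67 with 1 sample left out. Cspg4, at -0.001 with all samples, ranged from -0.056 to 0.048 with 1 left out and was 0.104 with array weights, where Gpr17 was -0.116. No other member changed sign. Under the lineage centring C1ql2 (-0.066), Neu1 (-0.055), Nkx2-2 (-0.005), Pcna (-0.118), Cdk1 (-0.019), Olig1 (-0.049), Olig2 (-0.017), Slc25a10 (-0.161) and Ncoa2 (-0.225) did, as did Olig2 with array weights (-0.007). Cdk1 ranged from -0.015 to 0.662 with 1 sample left out. The cause was not tested, except that centring moves all genes together and sets the differences of Olig1, Olig2 and Sox10 to sum to 0. The unknown depth limits the weakest member, C1ql1, most, since rlog shrinks low values.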
